A study of Ovis aries with 16 samples.

Results

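The let-7 family guide strands are the mature 5p miRNAs let-7a, let-7b, let-7c, let-7d, let-7e, let-7f, let-7g and let-7i, together with miR-98-5p. They were taken by name from a count table of small RNAs in sheep blood serum and in extracellular vesicles (EVs, membrane-bound particles that cells release) prepared from serum. All 9 names were present among the 1105 names of the table, and all 9 passed the filter on low counts in every comparison. Adolescent sheep with a normal biventricular heart underwent a single-stage Fontan operation, in which venous blood is led to the lungs without a pumping ventricle. The study compared the miRNA content of serum and serum EVs with and without this surgery.

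The 16 libraries fell into 4 groups. EVs after surgery came from animals D, E and F, and EVs before surgery from animals A, B, C, D and E. Serum after surgery came from animals D, E and F, and serum before surgery from animals A, B, C, D and E. The title of animal D's samples after surgery carries the tag D6 and those of animals E and F the tag D7, read here as days 6 and 7. The letters in the titles were read as animals, so animals D and E contributed to all 4 groups, animals A, B and C gave only samples before surgery, and animal F only samples after surgery. The labels call the samples before surgery controls, and no sham-operated animals are among them, so surgery cannot be told apart from time, anaesthesia or recovery. The labels give no further relation among samples, so a p-value here reflects the scatter of these samples alone, part of which may be technical. The extraction text describes the same 300 xg spin and the same column for particles of 70 to 1000 nm under serum and EV samples alike, and the labels do not say how the serum RNA was prepared apart from the EVs. In fluids such as these, fewer vesicles and less of a miRNA per vesicle cannot be told apart.

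As background, all let-7 guide strands share 1 seed, the short 5′ stretch of a miRNA that pairs with target mRNAs, and they repress growth and cell-cycle genes such as HMGA2, MYC and the RAS genes. LIN28 proteins block the maturation of let-7 precursors in embryonic and some tumour cells, and mature let-7 accumulates as cells differentiate. In blood, let-7 miRNAs occur in platelets, leukocytes and red cells as well as in plasma. Members differ from each other at few bases, so near-identical members may share reads, and how the authors counted such reads is not given in the sources used here. The values of single members are therefore uncertain, while the 9-member sum is not affected by an exchange of reads within the family. The names are those of human entries, whose match to the sheep sequence was not examined.

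The libraries held 65537 to 639207 counts each. Of the 1105 names, 375 were above 0 in all 16 libraries. Zeros were shared by groups of libraries in a way that the labels do not explain. Libraries fell into 8 sets by the names listed at 0: within a set the zero patterns were nearly the same (phi coefficient at least 0.895), and between sets phi was at most 0.483. The largest set held 5 EV libraries (A, B and E before surgery, E and F after), and animals C and D before surgery and D after each formed an EV set of their own. Serum libraries fell into sets of A and E before surgery, of C and D before surgery, of B before with E and F after surgery, and of D after surgery alone. No set held both serum and EV libraries. No family member was at 0 in any library, the lowest member count being 15, and a fit with the sets as a term is given where it bears on a result.

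The 9 members together made up between 1.65% and 9.11% of a library. In EVs after surgery they took 3.69% of counts in animal D, 9.11% in E and 8.13% in F, a mean of 6.98% ± 2.89 (SD, n = 3). In EVs before surgery they took 8.01% in animal A, 5.36% in B, 3.61% in C, 7.57% in D and 6.77% in E, a mean of 6.26% ± 1.79 (SD, n = 5). Animal D was lowest after and animal C before surgery, and these groups overlapped. In serum after surgery they took 1.65% in animal D, 4.53% in E and 5.73% in F, a mean of 3.97% ± 2.10 (SD, n = 3). In serum before surgery they took 7.19% in animal A, 2.07% in B, 3.13% in C, 4.92% in D and 4.54% in E, a mean of 4.37% ± 1.95 (SD, n = 5). Animal D was again lowest after surgery, and the groups overlapped in all 4 comparisons. These shares rest on 3514 to 20947 family counts per library, and no Wilson 95% interval was wider than 0.204 percentage points on each side, which covers counting error alone because PCR copies are not independent. The spread between animals was thus many times the counting error. Over the 16 libraries, which come from 6 animals, the family share ran against the library total with a Spearman rho of -0.64 and against the summed share of the red blood cell list with a rho of -0.44. With the summed share of the platelet list it ran at rho 0.60. The names of the red blood cell list differed, with a rho of -0.60 for miR-486-5p and 0.12 for miR-16-5p. These are descriptions of shares that have 1 total in common, and the part of depth or of blood cells in the family share was not tested.

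**Figure D1:**
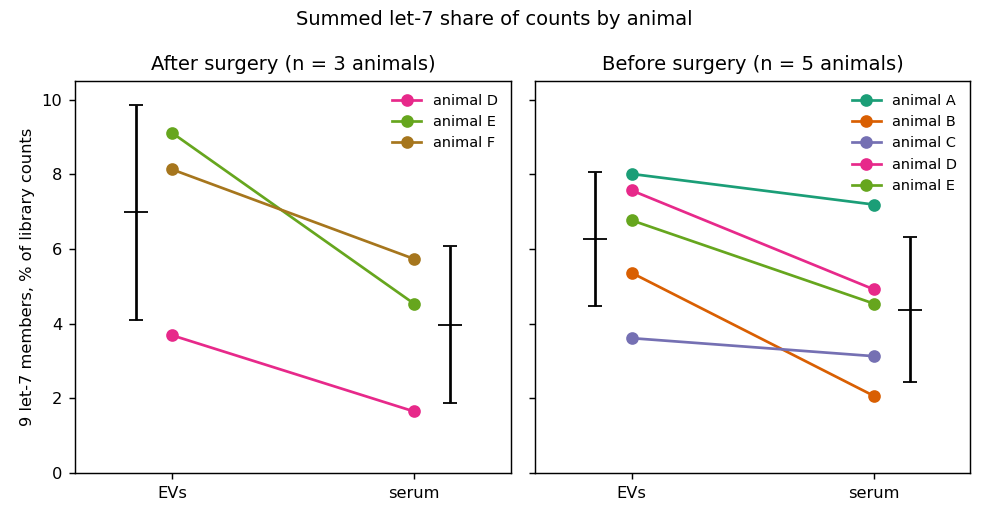
The y axis gives the summed share of the 9 let-7 family guide strands in percent of library counts, for EVs and serum on the x axis, after surgery (left, 3 animals) and before surgery (right, 5 animals); lines join the libraries of 1 animal, and the black bars are group means ± 1 SD. Every line slopes down from EVs to serum, and animal D after surgery is the lowest of its group in EVs (3.69%) and in serum (1.65%).

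Within the family, let-7b-5p and let-7a-5p supplied most counts. let-7b acts in human red-cell precursors, where the LIN28B and let-7 axis governs fetal globin, and let-7a is conserved from worms to mammals. Together they made up 65.2% to 78.3% of the family in every library, with group means of 76.6% ± 2.06 in EVs after surgery (SD, n = 3), 69.5% ± 3.23 in EVs before surgery (SD, n = 5), 75.8% ± 2.27 in serum after surgery (SD, n = 3) and 73.6% ± 2.35 in serum before surgery (SD, n = 5). let-7b-5p was the first member in 15 of 16 libraries, and let-7a-5p was first only in EVs of animal D before surgery. Mature miRNAs have similar lengths, so counts of members were set side by side without a length scale, and how efficiently the kit captures each member was not measured.

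let-7b-5p made up 58.4%, 56.9% and 48.1% of family counts in EVs of animals D, E and F after surgery. In EVs before surgery it made up 47.0%, 49.3%, 47.4%, 31.6% and 52.2% in animals A to E. Animal D before surgery stood below the other EV libraries, and the EV groups overlapped. In serum, let-7b-5p made up 48.4%, 46.8% and 50.5% of the family in animals D, E and F after surgery, and 43.7%, 58.6%, 54.7%, 41.2% and 44.0% in animals A to E before surgery. The 3 serum libraries after surgery lay within the range of those before.

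let-7a-5p made up 15.9%, 21.3% and 29.0% of family counts in EVs of animals D, E and F after surgery, and 22.5%, 23.7%, 20.0%, 33.7% and 20.0% in EVs of animals A to E before surgery. In serum it made up 25.1%, 29.1% and 27.6% in animals D, E and F after surgery, and 32.1%, 16.1%, 20.6%, 29.1% and 27.9% in animals A to E before surgery. Both pairs of groups overlapped, and EVs of animal D before surgery were again the library farthest from its group. The ratio of let-7b-5p to let-7a-5p counts reached its extremes in EVs of animal D, at 3.67 after surgery and 0.938 before surgery. In EVs of animal E, the other animal sampled at both times, it was 2.67 after and 2.61 before surgery. The share of let-7a-5p in the family ran against that of let-7b-5p over the 16 libraries with a Spearman rho of -0.85, both being parts of 1 sum.

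**Figure D2:**
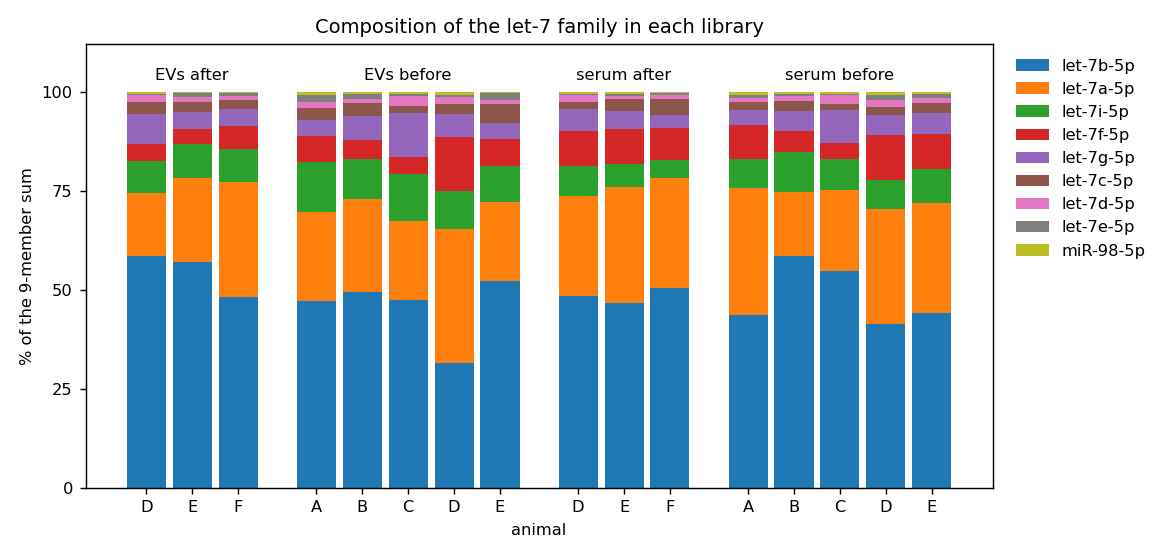
Each bar is 1 library, grouped on the x axis by material and time with letters for animals, and the y axis stacks the 9 members in percent of the 9-member sum. let-7b-5p is the largest block in 15 of 16 libraries, and EVs of animal D before surgery hold the largest let-7a-5p block (33.7%) and let-7f-5p block (13.6%).

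Below this pair, the mean order of the members was the same in EVs and serum before surgery and differed between them after surgery, with 3 libraries each. In EVs after surgery let-7i-5p ranked next with 8.35% ± 0.0746 of the family (SD, n = 3), above let-7g-5p with 5.46% and let-7f-5p with 4.58% ± 1.10. In EVs before surgery let-7i-5p also ranked next on average with 10.6% ± 1.53 (SD, n = 5), above let-7f-5p with 7.20% ± 3.72 and let-7g-5p with 6.24%. let-7i-5p was thus the member after the leading pair in EVs at both times. In serum after surgery let-7f-5p ranked next with 8.68% ± 0.496 (SD, n = 3), above let-7i-5p with 6.05% ± 1.5 and let-7g-5p with 4.35%. In serum before surgery let-7i-5p had 8.15% ± 1.21 (SD, n = 5), let-7f-5p 7.61% ± 2.97 and let-7g-5p 5.55%. There let-7i-5p was above let-7f-5p in only 2 of 5 libraries, with medians of 7.71% and 8.61%, so the order of their means did not hold in most libraries. let-7f is known to promote vessel sprouting in human endothelial cells, let-7i represses the receptor TLR4 in human bile duct cells, and the human let-7g gene lies within WDR82. let-7i-5p and let-7f-5p did not overlap in EVs after surgery or in serum after surgery, in opposite orders, and in the groups before surgery their ranges overlapped. The ranges of let-7g-5p overlapped those of let-7f-5p in EVs at both times and in serum before surgery.

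The remaining members were minor. let-7c-5p averaged 2.17% to 3.04% of the family over the 4 groups, let-7d-5p 1.16% to 1.61%, let-7e-5p 0.442% to 1.10% and miR-98-5p 0.505% to 0.697%. miR-98 belongs to the family by its seed and sequence although its name does not show it. let-7e-5p and miR-98-5p, the neighbours at the foot of the order, overlapped in all 4 groups. In library terms let-7b-5p ranked between 3 and 14 among all names, let-7a-5p between 5 and 35.

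For the effect of surgery, no member passed the test in either material, by edgeR's quasi-likelihood F test with Benjamini-Hochberg adjustment over all names at a threshold of 0.05. In EVs after against before surgery 0 of 9 members were called, as were 0 of 856 names tested (0.0%). In serum after against before surgery 0 of 9 members were called, as were 0 of 696 names tested (0.0%). At an unadjusted p under 0.05 there were 15 of all names in EVs and 54 in serum, and no member was among them. DESeq2 and limma-voom also called 0 names in both comparisons, although DESeq2 gave let-7b-5p in EVs an unadjusted p of 0.0375 (DESeq2 adjusted p = 1.000).

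In EVs, the fitted log2 fold changes of the members, after over before surgery, lay between -0.25 for let-7f-5p and 0.95 for let-7b-5p, with a median of 0.30 beside -0.017 for all names. Of the 9 members 8 lay above 0. let-7b-5p had the smallest p of the family, with a log2 fold change of 0.95 (SE 0.555, edgeR adjusted p = 0.999). As library shares, let-7b-5p took 2.15%, 5.19% and 3.91% in EVs of animals D, E and F after surgery and 3.77%, 2.64%, 1.71%, 2.39% and 3.53% in EVs of animals A to E before surgery. Animals E and F after surgery were above all 5 libraries before surgery, and animal D was within their range. No member was free of overlap between these groups by library share, where 2.23% of names above 0 in every EV library were. The signs depended on the scaling: with library totals in place of the trimmed-mean (TMM) factors, 2 of 9 members lay above 0, with a median of -0.20 beside -0.55 for all names.

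In serum, the fitted log2 fold changes of the members, after over before surgery, lay between -0.49 for let-7d-5p and 0.84 for let-7c-5p, with a median of -0.38 beside -0.20 for all names. Of the 9 members 4 lay above 0 and 5 below. let-7c-5p had the smallest p, with a log2 fold change of 0.84 (SE 0.736, edgeR adjusted p = 0.968). Human let-7c is made from a cluster with miR-99a and miR-125b. It had 141, 258 and 618 counts in serum of animals D, E and F after surgery and 228, 298, 312, 79 and 182 counts in serum of animals A to E before surgery. The counts of the groups overlapped, with animal F after surgery highest. No member's groups were free of overlap in serum, where 3.09% of names above 0 in every serum library were by library share and 1.99% relative to the family sum. With library totals 1 of 9 members lay above 0, with a median of -0.57 beside -0.93 for all names. With the shared-zero sets as a term, 8 of 9 members lay above 0 in serum and 9 of 9 in EVs. Only a set holding both times informs that fit. In serum this left animal B before surgery against E and F after. In EVs it left A, B and E before against E and F after. With the animal as a replicate block 8 of 9 lay above 0 in serum and 7 of 9 in EVs, with no member called. Only animals D and E, which had both times, inform the block fit.

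The surgery effect in EVs minus that in serum, fitted as an interaction over all 16 libraries, was called for 0 of 9 members and for 0 of 1018 names (0.0%). There were 85 names at an unadjusted p under 0.05, none a member, while DESeq2 called 3 names and limma-voom 0, again with no member. The members' differences had a median of 0.81 on the log2 scale beside 0.26 for all names, with 7 of 9 above 0, as with library totals, and 4 of 9 with the shared-zero sets as a term. The count with the sets rests only on the serum set and the EV set that held samples of both times. The member with the smallest p was let-7b-5p, at 1.02 (SE 0.977, edgeR adjusted p = 1.000).

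Animals D and E, sampled at both times, did not move alike. In EVs the family share after surgery divided by that before surgery was 0.487 in animal D and 1.35 in animal E. In serum it was 0.335 in animal D and 0.999 in animal E. The family's share was lower after surgery in both materials of animal D, higher in EVs of animal E, and all but equal in serum of animal E. Animal D's samples after surgery carry the earlier day tag, and their libraries had 473978 counts in EVs and 517833 in serum, against 276696 in EVs and 76988 in serum before surgery. Day, depth and animal cannot be told apart here.

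let-7i-5p made up a smaller part of the family in EVs after than before surgery. It made up 8.28%, 8.43% and 8.35% of family counts in EVs of animals D, E and F after surgery, against 12.7%, 9.90%, 11.7%, 9.70% and 9.15% in EVs of animals A to E before surgery. The groups did not overlap, with all 3 libraries after surgery lower. It was the only 1 of 9 members without overlap in this comparison, where 4.17% of names above 0 in every EV library did not overlap either when set relative to the same sum. With 9 members looked at, 1 without overlap was not far from that background. In animals D and E the let-7i-5p share of the family in EVs after surgery was 0.854 and 0.922 of that before surgery. As a share of the library, let-7i-5p took 0.305%, 0.768% and 0.679% in EVs of animals D, E and F after surgery and 1.02%, 0.531%, 0.424%, 0.734% and 0.619% in EVs of animals A to E before surgery, and these groups overlapped. The fitted log2 fold change of let-7i-5p was 0.26 with TMM factors (SE 0.601, edgeR adjusted p = 0.999). With the let-7 sum as library size, the scale of the family share, it was -0.35 (edgeR adjusted p = 0.877).

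let-7b-5p made up a larger part of the family after than before surgery in both materials of animals D and E. In EVs it made up 58.4% after and 31.6% before surgery in animal D, and 56.9% after and 52.2% before in animal E. In serum it made up 48.4% after and 41.2% before surgery in animal D, and 46.8% after and 44.0% before in animal E. The difference was thus large in EVs of animal D and a few percentage points in the other 3 contrasts. Relative to the 9-member sum, 2.67% of the 375 names above 0 everywhere were likewise not lower after surgery in any of the 4, and no other member was among them. let-7b-5p is itself a large part of that sum, so the other names are an unlike background. The library after surgery was the deeper in each of the 4 contrasts. Counts of let-7b-5p ran with the library total at a Spearman rho of 0.87, beside a median of 0.35 for the 375 names. The part of depth was not tested, and depth and surgery cannot be told apart in these 4 contrasts. The full groups of 3 and 5 libraries overlapped in both materials, as given above.

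let-7e-5p was the 1 member that made up a smaller part of the family after than before surgery in both materials of animals D and E. Human let-7e is made from a cluster with miR-99b and miR-125a. It had 42, 161 and 57 counts in EVs of animals D, E and F after surgery and 88, 41, 69, 91 and 113 in EVs of animals A to E before surgery. It had 37, 32 and 74 counts in serum of animals D, E and F after surgery and 82, 58, 69, 53 and 57 in serum of animals A to E before surgery. The groups overlapped in both materials. Relative to the 9-member sum, 17.1% of the 375 names above 0 everywhere were likewise lower after surgery in all 4 of these same-animal contrasts. A count of 1 among 9 members was therefore not above the background. The library after surgery was the deeper in each of the 4, and the let-7e-5p counts hardly followed depth: they spanned 5.03-fold while library totals spanned 9.75-fold, with a Spearman rho between count and total of -0.044. That placed let-7e-5p at the 17.6th percentile of the 375 names, whose median rho was 0.35, while let-7g-5p had a rho of 0.90, let-7b-5p 0.87 and let-7d-5p 0.86. As a share of the family, let-7e-5p ran against the library total with a rho of -0.86. These rho values are descriptions over 16 libraries from 6 animals. The part of depth in the lower let-7e-5p share after surgery was not tested, and in these 4 contrasts depth and surgery cannot be told apart.

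The family took a larger share of EV libraries than of serum libraries. In the 8 pairs of an EV and a serum library from the same animal and time, the family's share was higher in EVs in 8 of 8, by a ratio of 1.11 to 2.59 (median 1.52). Among the 375 names above 0 everywhere, 6.93% were higher in EVs in all 8 pairs, and 34.9% in at least 7. Most of these names leaned the same way: 57 were higher in EVs in 5 pairs and 113 in 6. Fewer leaned to serum, with 26 higher in EVs in 3 pairs, 14 in 2, 6 in 1 and 1 in none. The family share is a sum, so single names are an unlike background. With library totals, the members' median log2 fold change in EVs over serum was below that of all names. It was 0.65 beside 1.04 before surgery and 0.97 beside 1.5 after. The larger EV share was thus not particular to the family. By member, let-7b-5p, let-7d-5p, let-7g-5p and let-7i-5p were higher in EVs in 8 of 8 pairs, let-7a-5p, let-7c-5p, let-7e-5p and miR-98-5p in 7, and let-7f-5p in 6. let-7b-5p was all but equal in animal C before surgery, at 1.712% in EVs and 1.711% in serum. Animals D and E gave a pair at each time, so the pairs are not all from different animals. The EV library had fewer counts than the serum library in every pair but that of animal D before surgery. That pair had 276696 counts in EVs and 76988 in serum. The part of depth in the family's larger EV share was not tested.

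The share of the red blood cell list also differed between EVs and serum. Over all libraries most of it came from miR-486-5p and miR-16-5p, which averaged 20.0% and 10.6% of counts, beside 0.813% for miR-451a. The 8 names of the red blood cell list found in the table, among them miR-486-5p, miR-451a and miR-16-5p, took 24.6% ± 3.98 of counts in EVs after surgery (SD, n = 3) and 39.8% ± 14.0 in serum after surgery (SD, n = 3). Before surgery they took 27.9% ± 16.9 in EVs (SD, n = 5) and 43.7% ± 17.3 in serum (SD, n = 5). The mean was lower in EVs, and the groups overlapped at both times. The range was 21.5% to 29.1% in EVs after, 16.1% to 57.5% in EVs before, 24.6% to 52.0% in serum after and 21.3% to 68.0% in serum before surgery, and none of the 8 names was at 0 in any library. Their share was lower in EVs in most pairs of the same animal, being higher in EVs in 1 of 8. With these names left out of the total, the family share was higher in EVs in 5 of 8 pairs, by a ratio of 0.839 to 2.15. It then averaged 9.39% ± 4.21 in EVs after surgery (SD, n = 3), 8.68% ± 1.28 in EVs before surgery (SD, n = 5), 7.36% ± 4.90 in serum after surgery (SD, n = 3) and 7.87% ± 2.83 in serum before surgery (SD, n = 5). The family share outside the red-cell list was thus not higher in EVs in every pair. Where the list's share is lower in EVs, leaving it out lowers the ratio of EVs to serum for every other name. The change therefore follows from the scaling, and the part of red cells in the family's larger EV share was not tested.

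let-7i-5p was the only member higher in EVs in 8 of 8 pairs both by library share and outside the red-cell list. The ratio of its library share in EVs to that in serum was 1.61 to 2.90 (median 2.23), and outside the red-cell list it was 1.16 to 2.33 (median 1.59). Outside that list 3.73% of the 375 names were higher in EVs in all 8 pairs, and 25.3% in at least 7. As a part of the family, let-7i-5p and let-7g-5p were each higher in EVs in 7 of 8 pairs, where 9.87% of names, set relative to the same sum, were higher in at least 7. let-7f-5p went the other way, with a larger part of the family in EVs in 2 of 8 pairs, the other 6 being higher in serum. Of all names 16.5% were higher in serum in at least 6 pairs on this scale, so that count for let-7f-5p was not far from the background. The only 2 pairs with let-7f-5p higher in EVs were from before surgery.

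**Figure D3:**
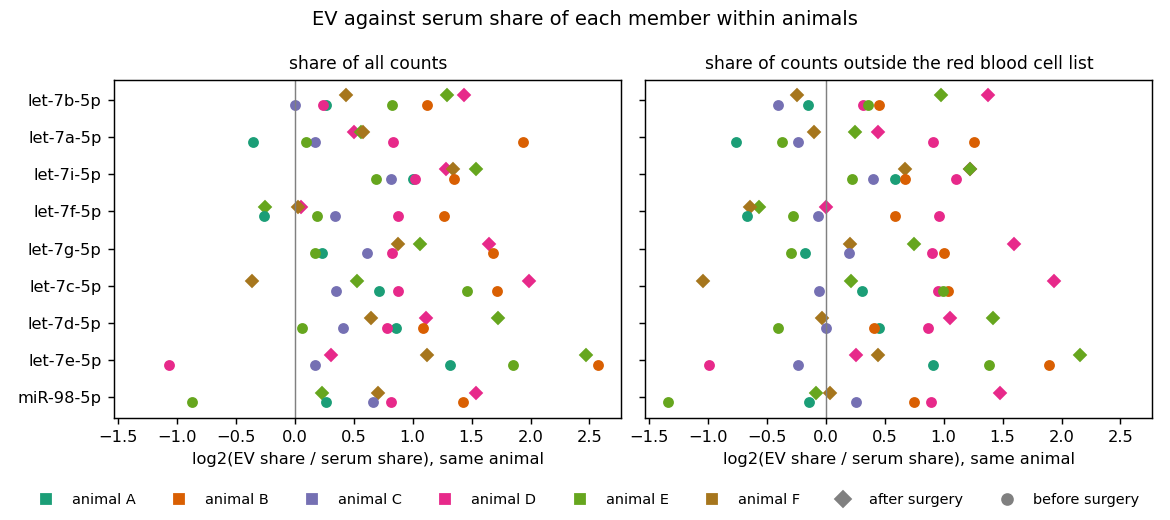
Each point is 1 same-animal pair, with the log2 of the EV share over the serum share on the x axis and the members down the y axis, from shares of all counts (left) and of counts outside the red blood cell list (right); colours are animals, diamonds after surgery and circles before. All 8 points of let-7i-5p lie right of 0 in both panels (ratios of 1.61 to 2.90 and of 1.16 to 2.33), while let-7f-5p has 6 of 8 there on the left and 2 of 8 on the right.

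After surgery, let-7d-5p, let-7g-5p and let-7i-5p took higher library shares in all 3 EV libraries than in all 3 serum libraries. These were 3 of 9 members, where 22.7% of names above 0 in these libraries did not overlap, so the count was not far from the background. let-7i-5p took 0.305%, 0.768% and 0.679% in EVs of animals D, E and F and 0.126%, 0.265% and 0.267% in serum of the same animals. As parts of the family, let-7i-5p made up 8.28% to 8.43% in EVs and 4.66% to 7.64% in serum, and let-7f-5p 3.74% to 5.83% in EVs and 8.10% to 8.97% in serum. These were the 2 of 9 members without overlap on this scale, where 7.9% of names did not overlap. Before surgery no member's groups were free of overlap on either scale, where 1.27% of names by library share and 0.763% relative to the family sum were.

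In the fits, no member passed the test between EVs and serum. After surgery 0 of 9 members were called by edgeR, as were 0 of 747 names (0.0%), with 60 names and no member at an unadjusted p under 0.05. DESeq2 called 41 names and limma-voom 42, none of them a member. Without serum of animal D edgeR called 251 of 843 names, none of them a member. The member with the smallest p was let-7f-5p, with a log2 fold change in EVs over serum of -1.17 (SE 0.592, edgeR adjusted p = 0.685). With library totals the same fold change was -0.051. Over the 9 members the median was -0.030 beside 0.30 for all names, with 4 above 0, and with library totals it was 0.97 beside 1.5 for all names, with 8 above 0.

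Before surgery 0 of 9 members were called and 23 of 768 names (2.99%) were. At an unadjusted p under 0.05 there were 107 names and no member, and DESeq2 called 54 names and limma-voom 151, again with no member. With the animal as a replicate block the 23 calls became 0, and with 1 library left out they were 26 to 89, the most without serum of animal D. The members' log2 fold changes in EVs over serum lay between -0.90 for let-7b-5p and -0.17 for let-7e-5p, with a median of -0.57 beside 0.35 for all names, so that 9 of 9 lay below 0 and below the median of all names. The sign was set by the scaling. With library totals 9 of 9 members lay above 0, with a median of 0.65 beside 1.04 for all names, and 7 of 9 lay below that median. let-7b-5p had the smallest p, at a log2 fold change of -0.90 (SE 0.613, edgeR adjusted p = 0.575) with TMM factors and 0.50 with library totals. let-7i-5p had -0.32 (SE 0.546, edgeR adjusted p = 0.796) with TMM factors, and 0.99 with library totals (edgeR adjusted p = 0.430). TMM factors computed over all 16 libraries spanned 0.278 to 2.94, while each fit used factors from its own libraries. No standard of known amount was used here to tell which scale applies.

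**Figure D4:**
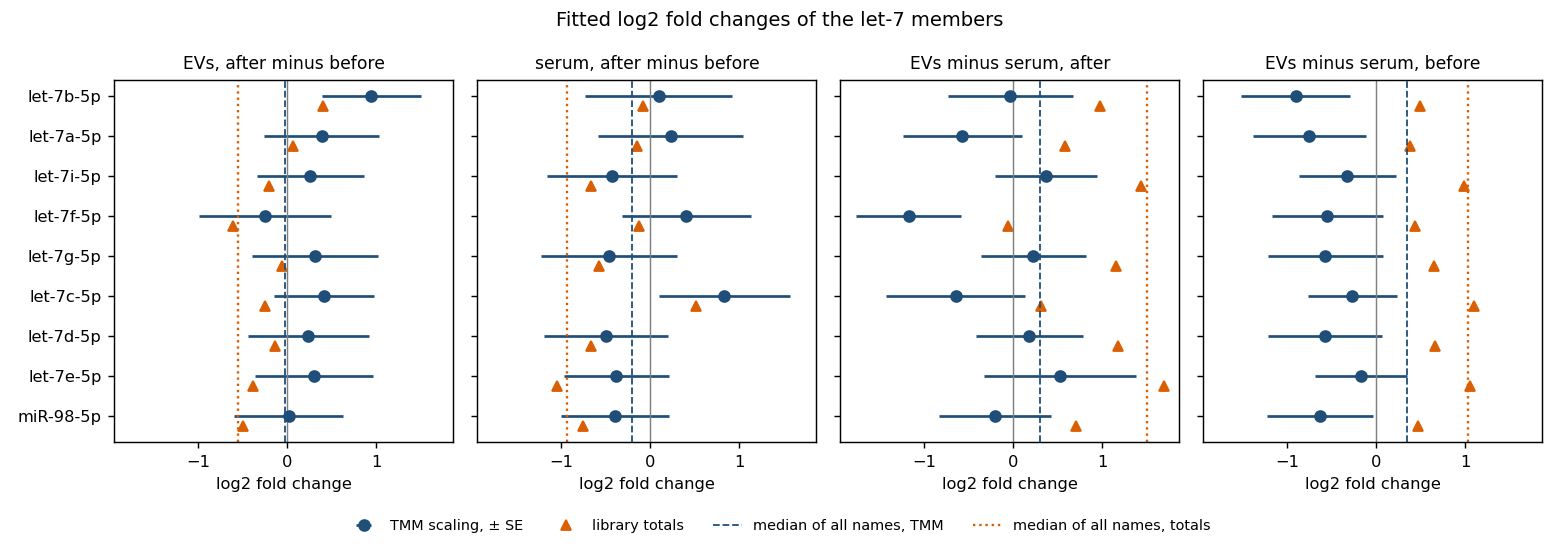
Members run down the y axis and the x axis gives the fitted log2 fold change, with 1 panel per comparison; circles with bars are edgeR estimates with TMM scaling ± SE, triangles those with library totals, and the vertical lines the median of all names under each scaling. In EVs minus serum before surgery all 9 circles lie below 0 and all 9 triangles above 0.

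Members' levels varied together across libraries, less so for let-7e-5p with TMM factors. On the log2 CPM scale with TMM factors, Spearman rho between members ran from -0.085 to 0.91 over the 36 pairs, with a median of 0.71, over 16 libraries that share their scaling. let-7d-5p with let-7i-5p had 0.91, let-7d-5p with let-7g-5p 0.90 and let-7a-5p with let-7f-5p 0.89. The 8 pairs with let-7e-5p had the lowest values, from -0.085 to 0.45, apart from let-7c-5p with let-7d-5p at 0.43. On the scale of library shares, the pairs with let-7e-5p had rho 0.45 to 0.80, within the range of the other members there. Among 364 other names above 0 in every library, the closest to the family sum on this scale were miR-148a-3p (rho 0.88), miR-30d-5p (0.78), miR-1468-5p (0.77), miR-423-5p (0.76) and the piRNA entry piR_015026 (0.76). On the scale of library shares these same names had rho 0.66, -0.49, 0.79, 0.43 and 0.32, so that the likeness of miR-30d-5p turned round with the scaling.

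Passenger strands, the 3p arms that are mostly discarded when a let-7 duplex loads its guide, were in the table for 5 precursors. For let-7b the guide made up at least 99.4% of the counts of both arms in every library, and for let-7a with let-7a-2-3p at least 92.9%. For let-7c it made up 71.8% to 99.0%. let-7d was different: let-7d-3p had more counts than let-7d-5p in 12 of 16 libraries. The guide's part of both arms was 49.4% ± 15.4 in EVs after surgery (SD, n = 3), 41.3% ± 14.4 in EVs before surgery (SD, n = 5), 35.7% ± 1.62 in serum after surgery (SD, n = 3) and 42.6% ± 9.78 in serum before surgery (SD, n = 5).

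let-7d-5p had 297, 189 and 78 counts in EVs of animals D, E and F after surgery, beside 281, 108 and 158 of let-7d-3p. In EVs of animals A to E before surgery it had 85, 38, 555, 378 and 51, beside 139, 88, 582, 228 and 135 of let-7d-3p. The 5p arm was ahead in animals D and E after surgery and in animal D before surgery. In serum let-7d-5p had 150, 63 and 141 counts in animals D, E and F after surgery, beside 270, 122 and 237 of let-7d-3p. In serum of animals A to E before surgery it had 109, 151, 470, 61 and 89, beside 115, 222, 366, 118 and 177. There the 5p arm was ahead only in animal C before surgery. The groups overlapped in both materials. Since let-7d-5p may share reads with near-identical members, the ratio of arms carries that uncertainty.

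**Figure D5:**
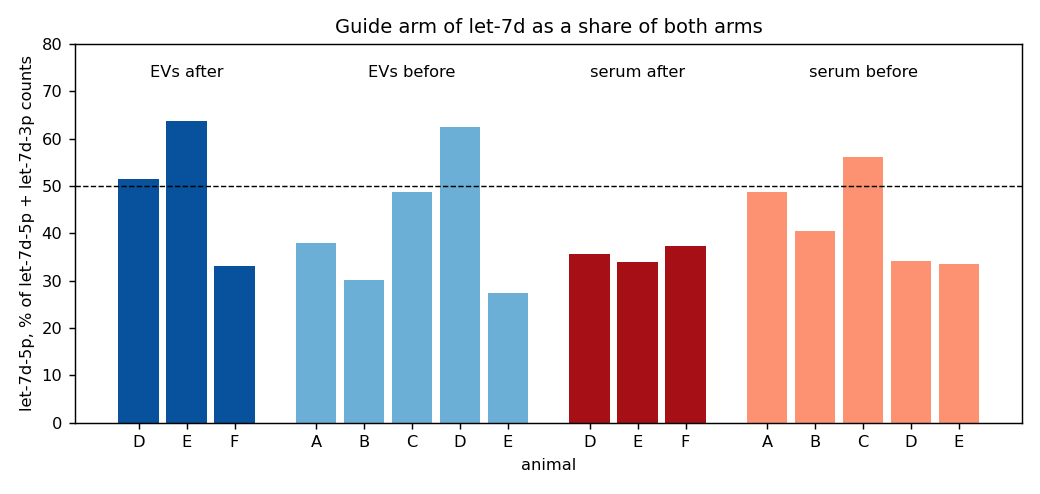
Each bar is 1 library, grouped on the x axis by material and time with letters for animals, and the y axis gives let-7d-5p in percent of the counts of both let-7d arms; the dashed line marks equal counts. Bars of 12 of 16 libraries end below the line, and the highest is EVs of animal E after surgery at 63.6%.

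miR-98-3p was listed at 0 in all 8 serum libraries and in EVs of animal D after surgery, and had 6 to 49 counts in the other 7 EV libraries. Since the names listed at 0 follow the library sets described above, no direction was drawn from it. In EVs of animal E before surgery it exceeded its guide, with 25 counts against 15 of miR-98-5p. None of the passenger strands that entered a fit was called by edgeR in any comparison.

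Names that are made from the same transcripts as let-7 members in human, miR-99a-5p, miR-99b-5p, miR-100-5p, miR-125a-5p and miR-125b-5p, were all in the table. None of the 5 was called by edgeR in any comparison. In EVs over serum all 5 lay below 0 with TMM factors at both times, with a median log2 fold change of -1.29 after surgery and -1.29 before surgery, where the medians of all names were 0.30 and 0.35. After surgery miR-125a-5p had -2.73 (SE 0.802, edgeR adjusted p = 0.205), and before surgery miR-99a-5p had -1.76 (SE 0.650, edgeR adjusted p = 0.226). By library share, miR-99b-5p and miR-125b-5p were higher in EVs in 5 of 8 same-animal pairs, miR-100-5p in 4, miR-99a-5p in 3 and miR-125a-5p in 1. For miR-99b-5p and miR-125b-5p this was 4 of 5 pairs before surgery and 1 of 3 after. For these names the direction by library share in most pairs was thus opposite to that of the TMM fit before surgery only. miR-99a-5p was higher in EVs in 1 of 5 pairs before and 2 of 3 after surgery, and miR-100-5p in 2 of 5 and 2 of 3. For miR-99a-5p and miR-100-5p the direction in most pairs was thus opposite to the TMM fit after surgery only. Of the 375 names above 0 everywhere, 6 were higher in EVs in 1 pair and 1 in no pair. miR-4458, which carries the let-7 seed in human, had 12 to 342 counts and was not called by edgeR in any comparison. In the sheep annotation of RefSeq (ARS-UI_Ramb_v3.0), 7 let-7 genes are named: MIRLET7A and MIRLET7D are neighbours, MIRLET7C lies next to MIR99A, MIRLET7F next to HUWE1, and MIRLET7G between WDR82 and PPM1M.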

How the data were processed

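The authors deposited 1 table of whole-number counts, with 1 line per mature miRNA or piRNA (1105 names, 30 of them piRNAs; 2 names stood on 4 lines and none was a member) for 16 libraries. Per the labels' protocols, RNA was purified with an RNeasy kit, after elution of EVs in 700 µl, and 1 ng entered the QIAseq miRNA kit. Per the submitters' processing notes, the reads passed through bcl2fastq 2.20.0.422 and the genome build was human hg19. Which aligner, counter, annotation and filters were used, and whether molecular identifiers were, is not given in the sources used here. Groups came from the sample titles.

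Family members were found by name. The members, lists and tests were chosen with earlier results of these data known. Shares are percent of the library total, with Wilson 95% intervals, and ± is the SD over libraries. Each comparison was fitted to the deposited counts by edgeR 4.0.16 under R 4.3.3, using TMM factors, names kept by filterByExpr at a minimum of 10 counts, and the quasi-likelihood F test; p-values were adjusted over all names tested by Benjamini-Hochberg, with 0.05 as the threshold. The SE of an edgeR estimate was taken as the absolute log2 fold change divided by the square root of the F statistic. Levels for rank correlations were log2 CPM with a prior count of 2. The script was tested on simulated data. Alternatives were DESeq2 1.42.0, limma-voom (limma 3.58.1), RLE factors, library totals, the let-7 sum as library size, no filter, a minimum count of 50, the red blood cell list left out, names above 0 in every compared library, all 16 libraries in 1 fit, the animal as a replicate block, the shared-zero sets as a term, and each library left out. All 9 members are described, and other names were chosen by list or, for likeness to the family sum, as the 5 highest rho. Passenger strands, cluster neighbours and names with the let-7 seed formed lists of 13, 5 and 2 names, of which 5, 5 and 1 were in the table.

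EVs and serum from 1 animal letter were taken as paired in the counts of same-animal pairs. The main fits held no term for the animal, which entered only the alternative with the animal as a replicate block. The deviations of log2 CPM from the group means correlated in such pairs before surgery at 0.19, -0.14, 0.69, -0.31 and -0.095 in animals A to E, and after surgery at 0.13, -0.091 and -0.18 in animals D, E and F. Several of these values were negative, so they do not bear out the pairing by themselves. No pair of libraries had identical counts. Sequences of the miRNAs were not used here.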

Additional observations from a re-analysis of the deposited data

Results flagged for a closer look

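In 5 of 40 groups of 5 values, 1 library stood apart from the other 4 by Dixon's criterion, which chance meets in about 5% of groups. As a share of library counts, let-7g-5p was lowest in serum of animal B before surgery, at 0.101% beside 0.248% to 0.287% in the other animals. In EVs of animal D before surgery 3 members met it. let-7a-5p made up 33.7% of the family beside 20.0% to 23.7% in the other EV libraries before surgery, and let-7f-5p made up 13.6% beside 4.33% to 6.69%. let-7b-5p made up 31.6% beside 47.0% to 52.2%. These 3 values are parts of 1 sum and count as 1 pattern. In EVs of animal C before surgery let-7g-5p made up 11.0% of the family, beside 4.13% to 6.06% in the others. Before surgery, the EV libraries of animals C and D each formed a set of their own by the names listed at 0, and the part of this in the values was not tested.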

How the results depend on the processing

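The members' calls were the same under every alternative run: of 944 member values 0 passed the threshold, 846 kept their sign and 98 changed it. The smallest adjusted p was 0.155, for let-7b-5p in EVs over serum before surgery without serum of animal D. Counts of called names moved more, and the cause was not tested. In EVs over serum before surgery the 23 calls became 54 with DESeq2, 151 with limma-voom, 56 with no filter, 57 with all 16 libraries in 1 fit, and 0 with a minimum count of 50, with names above 0 in every compared library, and with the animal as a replicate block; with 1 library left out they were 26 to 89, the most without serum of animal D. After surgery the 0 calls became 41 with DESeq2, 42 with limma-voom and, with 1 library left out, 0 to 251. The interaction had 3 calls with DESeq2 and 0 to 6 with 1 library left out, and serum after over before surgery had 2 with no filter. Outside the red blood cell list the family share moved to 8.68% in EVs before surgery, 7.36% in serum after surgery and 7.87% in serum before surgery. The paired fit with the animal as a replicate block changed no other call.

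The log2 fold changes of uncalled members that changed sign were as follows, with EVs or serum meaning after over before surgery, and before or after meaning EVs over serum at that time. With library totals serum gave let-7a -0.145, let-7b -0.0834 and let-7f -0.129, and EVs let-7c -0.245, let-7d -0.13, let-7e -0.38, let-7g -0.0568, let-7i -0.201 and miR-98 -0.493. Before, they gave let-7a 0.383, let-7b 0.497, let-7c 1.10, let-7d 0.662, let-7e 1.06, let-7f 0.436, let-7g 0.652, let-7i 0.985 and miR-98 0.468, and after, let-7a 0.585, let-7b 0.975, let-7c 0.317 and miR-98 0.708. With the let-7 sum as library size EVs gave let-7a -0.118, let-7c -0.283, let-7d -0.263, let-7e -0.648, let-7g -0.192, let-7i -0.35 and miR-98 -0.447. Before, it gave let-7c 0.489, let-7d 0.103, let-7e 0.546, let-7g 0.17 and let-7i 0.386, after, let-7b 0.166, and in the interaction let-7a -0.235 and miR-98 -0.018. With the animal as a replicate block serum gave let-7d 0.126, let-7g 0.286, let-7i 0.161 and miR-98 0.0238, EVs let-7e -0.158 and after let-7b 0.0438. With the shared-zero sets as a term serum gave let-7d 0.379, let-7e 0.813, let-7g 0.539 and miR-98 0.67, EVs let-7f 0.64 and the interaction let-7a -0.37, let-7e -0.221 and miR-98 -0.0119. That term could not be estimated between EVs and serum, since no set held both. For after over before surgery it rests only on the sets that held samples of both times, in serum with animal B alone before surgery. let-7b in serum was -0.0213 with DESeq2, -0.0213 with RLE factors and -0.0761 with all 16 libraries in 1 fit. let-7b after was 0.0408 with DESeq2, 0.0407 with RLE factors, 0.0165 with limma-voom, 0.0791 with a minimum count of 50 and 0.0156 with the red blood cell list left out. limma-voom gave EVs let-7f 0.0962, and leaving out the red blood cell list EVs miR-98 -0.00206. Before, a minimum count of 50 gave let-7c 0.0884, let-7e 0.22 and let-7i 0.00794, and names above 0 everywhere let-7c 0.00534 and let-7e 0.129.

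With each library left out, values that changed sign ranged in serum from -0.239 to 0.573 for let-7a, -0.434 to 0.408 for let-7b, -0.886 to 0.127 for let-7d and -0.868 to 0.0877 for let-7g. In EVs they ranged from -0.0291 to 0.578 for let-7d, -0.707 to 0.719 for let-7e, -0.434 to 0.455 for let-7f, -0.0697 to 0.435 for let-7i and -0.282 to 0.356 for miR-98. Before, they ranged from -1.03 to 0.0429 for let-7d and -0.398 to 0.0331 for let-7e. After, they ranged from -0.326 to 0.396 for let-7b, -1.08 to 0.0876 for let-7c, -0.0220 to 0.464 for let-7d, -0.450 to 1.04 for let-7e, -0.0237 to 0.509 for let-7g and -0.480 to 0.0287 for miR-98. In the interaction they ranged from -0.0694 to 0.732 for let-7a, -0.749 to 0.468 for let-7c, -0.149 to 1.34 for let-7e and -0.844 to 0.214 for let-7f. SE of 0.498 to 1.00 on these fold changes, from 3 to 5 libraries a group, and counts as low as 15 for miR-98-5p limit what could be detected.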
